A study of Mus musculus with 10 samples.

Results

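The genes described here serve the endoplasmic reticulum (ER), the compartment in which secreted and membrane proteins are folded. They are 36 genes named for their roles in ER protein folding, ER-associated degradation (ERAD), translocation into the ER and the unfolded protein response (UPR). All 36 had an array probe set that carried their symbol alone, out of 19938 genes measured. Where a symbol had several probe sets, the brightest on average was used, and all values are log2 expression values. The values come from Affymetrix whole-transcript arrays of total RNA from cultured mouse neurons labelled as terminally differentiated (strain 129Sv-C57Bl/6). The SP600125 group (n = 5) was given 25 µM SP600125, which blocks the kinase activity of JNK (JUN N-terminal kinase), in 3 additions spaced 2 h apart. The DMSO group (n = 5) was given the solvent by the same schedule. The drug came in separate batches: drug batch 2 covers replicates c, d and e of each group, and drug batch 1 covers a and b.

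Proteins enter the ER through the SEC61 channel, are held by the HSP70 chaperone BiP and by lectin chaperones, and receive their disulfide bonds from protein disulfide isomerases. Those that do not fold are pulled back to the cytosol and degraded by ERAD. When unfolded proteins build up, the sensors IRE1, PERK and ATF6 start the UPR, which slows translation and raises the transcription of chaperone and ERAD genes. Active IRE1 is also known to recruit TRAF2 and thereby to activate JNK, and neurons rely on this system for the large amount of membrane protein that they make.

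A few measures of the whole data set bear on every value below. In a limma model with treatment and drug batch, 46.9% of all genes passed an adjusted p (Benjamini-Hochberg) of 0.05, 17.0% higher and 29.9% lower after SP600125, with a median change of −0.03 on the log2 scale. Of the calls, 36.2% were rises, against 25.0% after quantile normalization and 14.8% after centring each array on its median, which moved the median change of all genes to −0.13. Brighter genes were more often lower: 64.1% of the genes with a mean log2 value of 8 or more fell, with a median change of −0.23, and 24 of the 36 members lie in that range. The SD of all genes on an array was 1.63 to 1.71 on SP600125 arrays and 1.76 to 1.84 on DMSO arrays. Cyclic loess, which aligns the arrays at each signal level, brought the shares of all genes to 9.44% higher and 17.7% lower. For that reason the values after cyclic loess stand beside the deposited ones. The submitters call a to e biological replicates and do not say whether they were separate cultures, so p-values measure only how these samples varied, possibly for technical reasons, and the number of arrays limits their precision.

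Most of the ER genes were lower after SP600125, by modest amounts. Of the 36, 20 fell, 1 rose and 15 did not pass the test. This is 55.6% lower against the 29.9% of all genes. Of the 24 members with a mean log2 value of 8 or more, 70.8% fell (median −0.25), against 64.1% of genes in that range (median −0.23). The median change of the 36 was −0.20, and single genes ran from −0.45 (Hspa13, 0.732 times the DMSO level) to 0.22 (Sec61b, 1.16 times). For 16 of the 36 (44.4%) every SP600125 array lay below every DMSO array, which held for 16.4% of all genes. In the range of 8 or more, this held for 58.3% of members and 38.5% of genes. For none of the 36 did every SP600125 array lie above (6.65% of all genes). After cyclic loess 8 of the 36 members fell and 3 rose, with a median of −0.07, against 17.7% and 9.44% of all genes. In the range of 8 or more, 8 of 24 members and 678 of 2615 genes fell, with medians of −0.09 and −0.07. These 8 were Hspa5, Hyou1, Hspa13, Hsp90b1, Calr, Edem3, Xbp1 and Sec61a1, and they were called lower under all 4 scalings and in each of the 10 fits that left out 1 array. The share of all genes that met this rule was not computed, so it does not set the members apart. Because bulk RNA was measured, fewer cells of a type and less RNA per cell cannot be told apart.

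**Figure D1:**
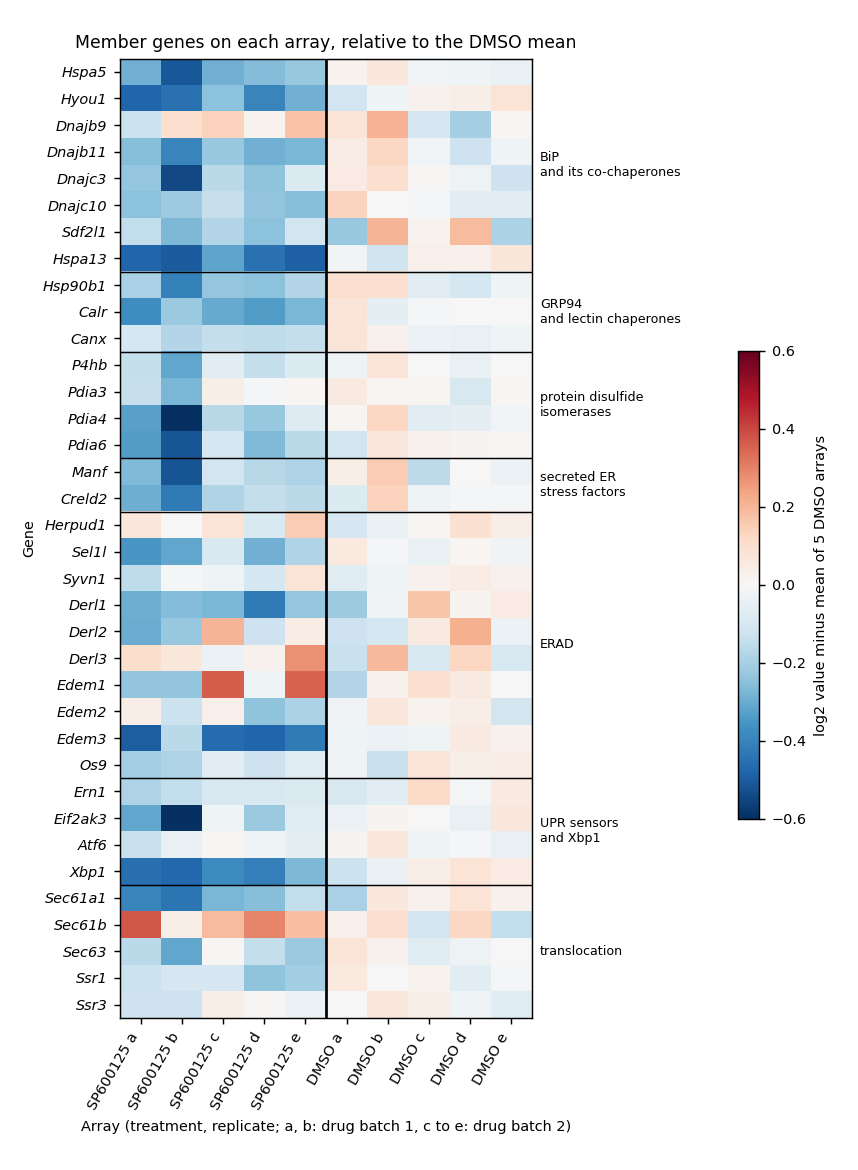
Each cell shows the log2 value of 1 gene on 1 array minus the mean of the 5 DMSO arrays, with SP600125 arrays left of the black line, DMSO arrays right of it and genes in rows by role. Colours saturate at 0.6 in both directions. SP600125 columns are mostly blue, the column of SP600125 b is darkest for the disulfide isomerases and secreted factors, and Sec61b stands out in red.

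Of the 8 genes for BiP and its co-chaperones, 6 fell and none rose, with a median change of −0.27. The share of 75.0% lower stands against 29.9% of all genes and 64.1% of those with a mean log2 value of 8 or more. Hspa5, which encodes BiP itself, had log2 values of 10.77, 10.55, 10.77, 10.80 and 10.83 on SP600125 arrays a to e, against 11.08, 11.12, 11.04, 11.03 and 11.02 on DMSO arrays a to e. The groups did not overlap, and SP600125 b was the lowest array by a wide margin. Hspa5 fell by 0.31 (SE 0.06, adjusted p = 0.00191), or to 0.805 times the DMSO level. Genes of its brightness (mean log2 value from 10 to 11) had a median change of −0.17.

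The promoter of Hspa5 is where the ER stress response element (ERSE) is best known, a site in which a CCAAT box, bound by NF-Y, is followed at a fixed distance by a half-site that ATF6 and XBP1 can bind. RefSeq promoter windows (GRCm38.p6, 250 bases before to 50 after the gene start) were matched by symbol for 30 of the 36 members. An exact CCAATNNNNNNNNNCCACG on either strand was found for 9 of these 30 (30.0%), against 21 of all 15614 genes with a window (0.134%), so 12 of the 21 are not members. ATTGGNCCACG (ERSE-II) was found for 2 members (6.67%, against 0.0576% of genes), TGACGTGG for 0 members (0.916% of genes) and CCAAT on either strand for 24 members (80.0%, against 41.7% of genes). The ERSE and ERSE-II contain the CCAAT box, so these counts overlap. Many members were grouped by the field as UPR targets, and the shares are a description of the list. Of the 9 members with an ERSE, 7 fell and 2 did not pass (Syvn1 and Derl3), with a median change of −0.25. Of all genes 29.9% fell, and of those with a mean log2 value of 8 or more 64.1% (median −0.23). Syvn1 and Derl3 were the dimmest of the 9, with mean log2 values of 7.38 and 5.67. After cyclic loess only Hspa5, Hsp90b1 and Calr of the 9 passed, all lower. Of the 21 members with a window and no ERSE match, 8 fell and 1 rose, with a median of −0.15. These 21 include Dnajb11 and Herpud1, which have an ERSE-II. After cyclic loess Edem3 and Xbp1 of the 21 were lower, and Dnajb9, Herpud1 and Sec61b higher. Of the 12 genes outside the list, 3 fell, 1 rose and 8 did not pass.

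Shown are the 4 members with an ERSE before the gene start that had the largest changes, to let the letters and position of the element be compared between genes. They were picked by size of change, so they say nothing of how the element and the change go together. Each stretch is written along the gene's strand, with both conserved parts of the element in capitals and 20 bases on either side. The Hspa5 stretch is chr2:34772005-34772063 on the plus strand, and its element starts 65 bases before the gene start. The Calr stretch is chr8:84847055-84847113 on the minus strand, with the element in the opposite orientation starting 162 bases before the gene start. The Pdia6 stretch is chr12:17266471-17266529 on the plus strand (98 bases before), and the Dnajc3 stretch is chr14:118937807-118937865 on the plus strand (105 bases before).
Hspa5: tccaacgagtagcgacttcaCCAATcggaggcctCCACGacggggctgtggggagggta
Calr: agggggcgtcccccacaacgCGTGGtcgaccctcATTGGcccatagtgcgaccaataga
Pdia6: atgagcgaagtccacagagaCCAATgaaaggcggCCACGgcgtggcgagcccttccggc
Dnajc3: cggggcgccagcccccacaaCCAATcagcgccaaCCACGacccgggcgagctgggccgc

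Hspa13, an HSP70-like ATPase of microsomes, changed most among all 36. Its values were 8.02, 8.0, 8.18, 8.05 and 8.01 on SP600125 arrays a to e, against 8.48, 8.38, 8.53, 8.53 and 8.57 on DMSO arrays, with no overlap. It fell by 0.45 (SE 0.06, adjusted p = 0.000148), and by 0.26 after cyclic loess (adjusted p = 0.00374). Hyou1 is the large HSP70-related protein that exchanges the nucleotide of BiP. It had 8.43, 8.46, 8.66, 8.51 and 8.62 after SP600125, against 8.79, 8.88, 8.93, 8.94 and 8.99 after DMSO. The groups again did not overlap, and Hyou1 fell by 0.37 (SE 0.06, adjusted p = 0.000355).

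Of the 4 genes of this group for J-domain proteins, which drive the ATPase of BiP, 3 fell. Dnajb11 (ERdj3) fell by 0.29 (SE 0.06), Dnajc3 (p58IPK, also an inhibitor of PERK) by 0.25 (SE 0.08) and Dnajc10 (ERdj5, a disulfide reductase) by 0.22 (SE 0.06), all at adjusted p up to 0.0215. None of these 3 passed after cyclic loess, where their changes were −0.11, −0.09 and −0.06. Dnajc3 also did not pass without DMSO a (−0.23, adjusted p = 0.0579), without DMSO b (−0.21, 0.0542) or without both b arrays (−0.16, 0.0698), and its 2 probe sets hold identical values. Dnajb9 (ERdj4), a regulator of IRE1, averaged 8.04 ± 0.12 after SP600125 and 7.98 ± 0.16 after DMSO (SD, n = 5 each), a change of 0.06 that did not pass (adjusted p = 0.573). After cyclic loess Dnajb9 was called higher (0.25, SE 0.08, adjusted p = 0.0364), and its deposited value turned negative after median centring (−0.04). Sdf2l1, a partner of the BiP and ERdj3 complex, had −0.19 (SE 0.09, adjusted p = 0.0939).

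All 3 of the HSP90 and lectin chaperones fell, and on each the groups did not overlap. Of genes with a mean log2 value of 10 or more, 49.6% fell. Every SP600125 array lay below every DMSO array for 29.3% of those genes. Hsp90b1, which encodes GRP94, had 10.87, 10.66, 10.83, 10.82 and 10.89 on SP600125 arrays a to e, against 11.16, 11.16, 11.00, 10.96 and 11.04 on DMSO arrays. SP600125 b was the lowest and both DMSO arrays of drug batch 1 the highest. It fell by 0.25 (SE 0.07, adjusted p = 0.00803), but did not pass in drug batch 2 alone (−0.15, adjusted p = 0.0856 in a fit of those 6 arrays). Calr, calreticulin, the soluble lectin, had 10.38, 10.53, 10.45, 10.42 and 10.48 after SP600125, against 10.83, 10.70, 10.74, 10.75 and 10.75 after DMSO. Its arrays were tight within each group, and it fell by 0.30 (SE 0.06, adjusted p = 0.00119) and by 0.22 after cyclic loess (adjusted p = 0.00674). Canx, calnexin, the membrane-bound lectin, had 10.99, 10.92, 10.95, 10.94 and 10.95 after SP600125, against 11.17, 11.12, 11.06, 11.05 and 11.07 after DMSO. Its fall was small (0.14, SE 0.05, adjusted p = 0.0415), and it did not pass when any of the 10 arrays was left out (adjusted p up to 0.0942).

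Of the 4 protein disulfide isomerases, 2 fell. Pdia4 (ERp72) had 9.11, 8.82, 9.27, 9.21 and 9.36 on SP600125 arrays a to e, against 9.45, 9.56, 9.37, 9.38 and 9.42 on DMSO arrays. The groups did not overlap, but SP600125 e almost reached the lowest DMSO array, and SP600125 b was far below the others. Pdia4 fell by 0.28 (SE 0.09, adjusted p = 0.0161), and had −0.17 (adjusted p = 0.0524) without both b arrays. A second and much dimmer Pdia4 probe set averaged 5.07 ± 0.23 after SP600125 and 4.68 ± 0.12 after DMSO (SD, n = 5 each), so the probe sets disagree in direction. Pdia6 had 9.86, 9.68, 10.09, 9.93 and 10.03 after SP600125, against 10.08, 10.26, 10.22, 10.21 and 10.20 after DMSO. SP600125 c overlapped DMSO a by a hair, and Pdia6 fell by 0.27 (SE 0.07, adjusted p = 0.00557). P4hb, the archetypal disulfide isomerase, had a change of −0.15 (SE 0.06, adjusted p = 0.0664), and Pdia3 (ERp57), which works with the lectin chaperones, of −0.07 (SE 0.07, adjusted p = 0.401). None of the 4 passed after cyclic loess.

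Both genes of small ER-resident factors that cells secrete under ER stress were lower. Of all genes 29.9% fell, of those with a mean log2 value from 7 to 8 60.6%, and of those from 8 to 9 66.3%. Manf, a neurotrophic factor that binds BiP, had 8.07, 7.82, 8.22, 8.17 and 8.15 on SP600125 arrays a to e, against 8.37, 8.49, 8.18, 8.34 and 8.30 on DMSO arrays. SP600125 c lay above DMSO c, and SP600125 b was lowest. Manf fell by 0.24 (SE 0.08, adjusted p = 0.0254), but had −0.17 without SP600125 b (adjusted p = 0.0567), −0.23 without DMSO a (0.0628), −0.19 without DMSO b (0.0684) and −0.14 without both b arrays (0.0977). Creld2 had 7.54, 7.41, 7.65, 7.69 and 7.67 after SP600125, against 7.75, 7.97, 7.80, 7.82 and 7.82 after DMSO. The groups did not overlap, and Creld2 fell by 0.24 (SE 0.07, adjusted p = 0.0116). After cyclic loess Manf and Creld2 had −0.06 and −0.05, and neither passed.

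**Figure D2:**
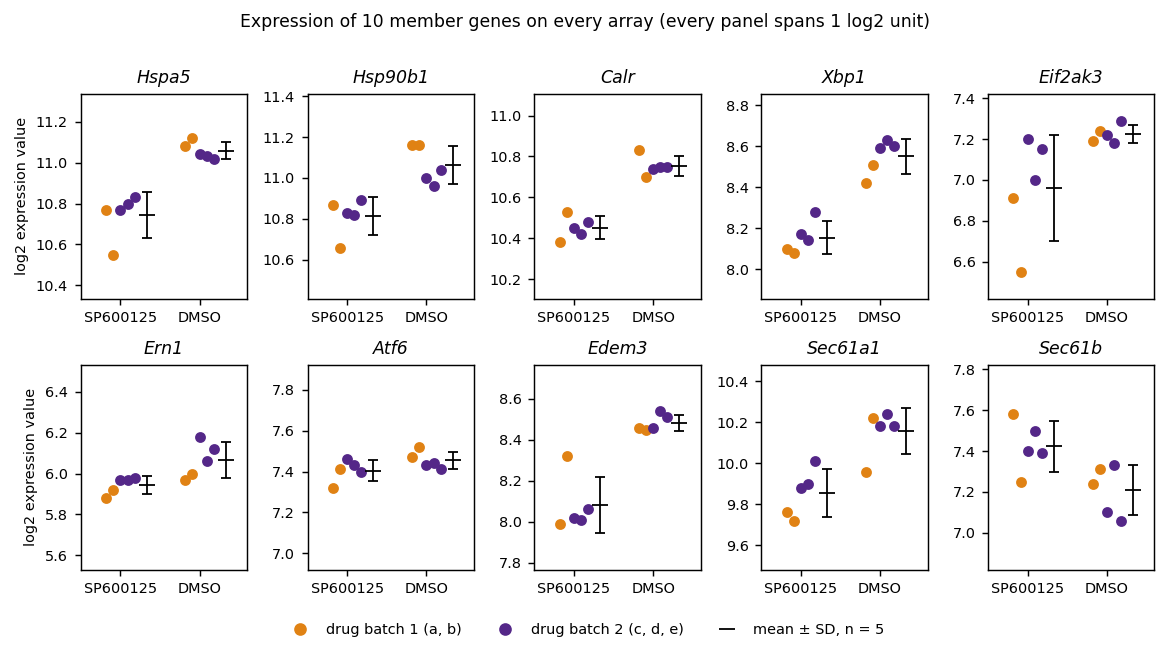
Log2 expression values of 10 member genes, with 1 point per array, SP600125 left of DMSO, drug batch 1 in orange and drug batch 2 in purple, and black bars for the mean ± SD of 5 arrays. Every panel spans 1 log2 unit. Hspa5, Hsp90b1, Calr, Xbp1 and Edem3 do not overlap between the groups, SP600125 b lies apart for Hspa5, Eif2ak3 and Edem3, and Sec61b is higher on average after SP600125.

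The ERAD genes were mixed, with 3 of 10 lower, none higher and a median change of −0.09, and the share of 30.0% lower is that of all genes. Edem3, a mannosidase that trims misfolded glycoproteins, had 7.99, 8.32, 8.02, 8.01 and 8.06 on SP600125 arrays a to e, against 8.46, 8.45, 8.46, 8.54 and 8.51 on DMSO arrays. Here SP600125 b was the array nearest to DMSO. Edem3 fell by 0.40 (SE 0.07, adjusted p = 0.000664), and by 0.22 after cyclic loess (adjusted p = 0.0148). Its relatives did not pass, with −0.10 (SE 0.07, adjusted p = 0.251) for Edem2 and 0.04 (SE 0.09, adjusted p = 0.703) for Edem1. Edem1 was spread widely after SP600125, with 6.64, 6.64, 7.24, 6.85 and 7.23 on arrays a to e, against 6.70 to 6.97 on DMSO arrays.

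Derl1, a derlin of the retrotranslocation channel, had 7.59, 7.62, 7.61, 7.46 and 7.65 after SP600125, against 7.67, 7.86, 8.05, 7.90 and 7.93 after DMSO. The groups did not overlap, though DMSO a came close, and Derl1 fell by 0.29 (SE 0.07, adjusted p = 0.00443). Its relatives Derl2 (−0.08, SE 0.07) and Derl3 (0.09, SE 0.08) did not pass. Sel1l, the adaptor of the HRD1 ubiquitin ligase, had 8.57, 8.61, 8.83, 8.63 and 8.74 after SP600125, against 8.98, 8.91, 8.88, 8.93 and 8.90 after DMSO. The groups did not overlap, and Sel1l fell by 0.25 (SE 0.06, adjusted p = 0.00626). Syvn1, which encodes HRD1 itself, had −0.04 (SE 0.06, adjusted p = 0.573). Os9, a lectin that hands glycoproteins to this ligase, had −0.13 (SE 0.05, adjusted p = 0.057). Herpud1, a membrane component that is among the genes most readily induced by the UPR, averaged 8.43 ± 0.09 after SP600125 and 8.39 ± 0.07 after DMSO (SD, n = 5 each, adjusted p = 0.608). After cyclic loess Herpud1 was called higher (0.22, SE 0.06, adjusted p = 0.02), while Derl1 (−0.11) and Sel1l (−0.08) did not pass, so Edem3 alone was called lower in that group.

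Of the UPR sensors and their transcription factor, Xbp1 moved most. The mRNA of Xbp1 is cut by IRE1 to encode the active factor, and the probe set gave 1 value for the gene. Xbp1 had 8.10, 8.08, 8.17, 8.14 and 8.28 on SP600125 arrays a to e, against 8.42, 8.51, 8.59, 8.63 and 8.60 on DMSO arrays. The groups were well apart, and Xbp1 fell by 0.39 (SE 0.06, adjusted p = 0.000259, 0.762 times the DMSO level) and by 0.21 after cyclic loess (adjusted p = 0.0171). Eif2ak3, which encodes PERK, had 6.91, 6.55, 7.20, 7.0 and 7.15 after SP600125, against 7.19, 7.24, 7.22, 7.18 and 7.29 after DMSO. SP600125 c reached into the DMSO range, and the SP600125 arrays were spread far more widely than the DMSO arrays. Eif2ak3 fell by 0.26 (SE 0.09, adjusted p = 0.0259), but had −0.17 without SP600125 b (adjusted p = 0.0503) and also did not pass without SP600125 d (0.0566), DMSO a (0.0691), DMSO b (0.0644) or both b arrays (−0.15, 0.0847).

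Ern1, which encodes IRE1, had 5.88, 5.92, 5.97, 5.97 and 5.98 after SP600125, against 5.97, 6.00, 6.18, 6.06 and 6.12 after DMSO. The groups overlapped slightly, and its change of −0.12 (SE 0.05) did not pass (adjusted p = 0.0777, 95% interval −0.24 to −0.01 before adjustment). Atf6, the sensor that becomes a transcription factor on cleavage, had 7.32, 7.41, 7.46, 7.43 and 7.40 after SP600125, against 7.47, 7.52, 7.43, 7.44 and 7.41 after DMSO. The groups overlapped, and the change of −0.05 (SE 0.06) did not pass (adjusted p = 0.471, 95% interval −0.17 to 0.07).

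Of the 5 genes of the translocation machinery, 2 fell and 1 rose. Sec61a1 encodes the channel's pore subunit. It had 9.76, 9.72, 9.88, 9.90 and 10.01 on SP600125 arrays a to e, against 9.96, 10.22, 10.18, 10.24 and 10.18 on DMSO arrays. The groups overlapped only through DMSO a, which lay below SP600125 e, and Sec61a1 fell by 0.30 (SE 0.06, adjusted p = 0.00201). Sec61b, a small subunit of the same channel, had 7.58, 7.25, 7.40, 7.50 and 7.39 after SP600125, against 7.24, 7.31, 7.10, 7.33 and 7.06 after DMSO. The groups overlapped, as SP600125 b lay among the DMSO arrays. Sec61b was the only member called higher (0.22, SE 0.08, adjusted p = 0.0341). That call was lost in 7 of the 10 fits without 1 array (adjusted p up to 0.0992). These left out SP600125 a, c, d or e or DMSO a, c or e. The call was also lost after median centring (0.11, adjusted p = 0.213). The rise of Sec61b was larger after cyclic loess (0.38, adjusted p = 0.00703) and after quantile normalization (0.33, adjusted p = 0.00953).

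All 3 probe sets that carry the name Sec61b were higher after SP600125, by 0.22, 0.24 and 0.32. Several probe sets of the same name can belong to near-identical copies, so the assignment to Sec61b is uncertain. Ssr1, a subunit of the translocon-associated TRAP complex, had 9.33, 9.36, 9.36, 9.22 and 9.25 after SP600125, against 9.52, 9.46, 9.48, 9.39 and 9.45 after DMSO. The groups did not overlap but the fall was small (0.16, SE 0.06, adjusted p = 0.0325), and it was lost without SP600125 a, d or e or DMSO a, c or e. Ssr3, another TRAP subunit, had −0.05 (SE 0.06, adjusted p = 0.52), and Sec63, a J-domain protein of the translocon, −0.17 (SE 0.07, adjusted p = 0.0578).

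**Figure D3:**
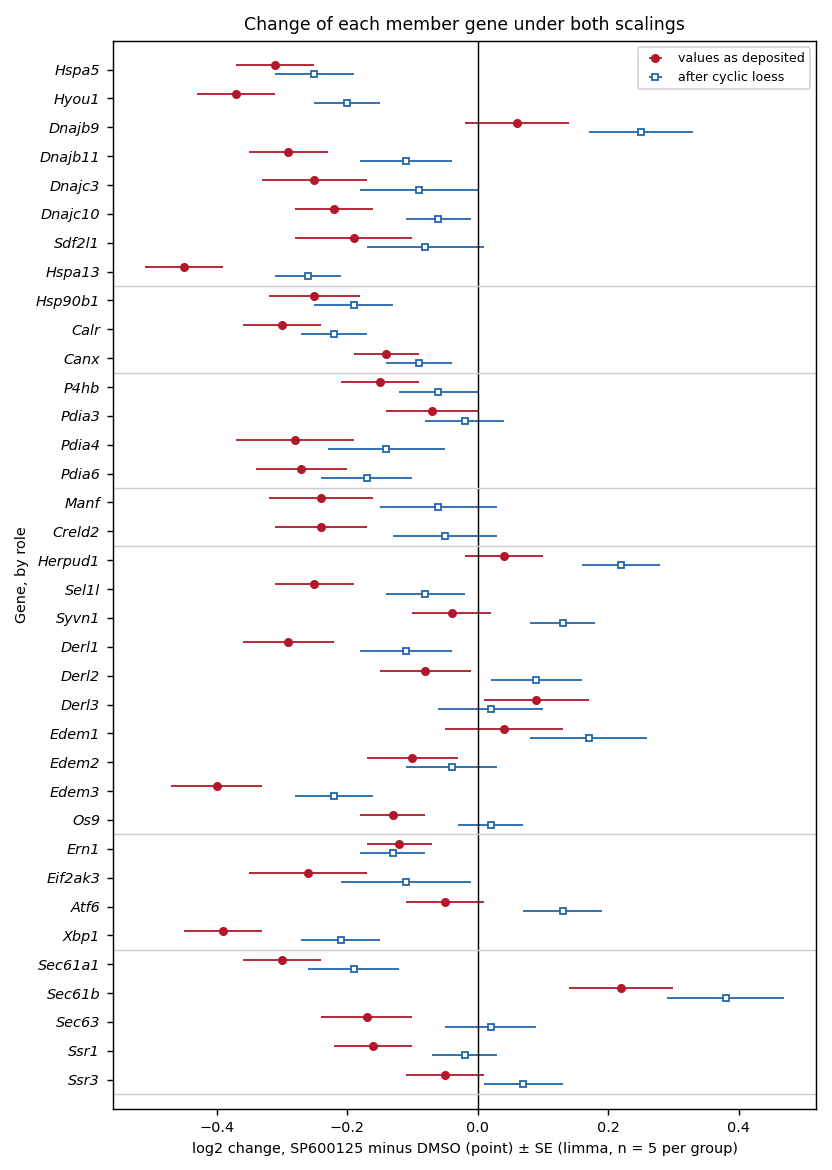
Log2 change (SP600125 minus DMSO) of each member with its limma SE, from the values as deposited (filled circles) and after cyclic loess (open squares), with genes in rows by role and n = 5 per group. Filled circles lie mostly left of 0, 31 of 36 in all, and most squares lie nearer to 0 or right of it. Both symbols stay clearly left of 0 for Hspa5, Hyou1, Hspa13, Calr, Edem3 and Xbp1.

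The drug batches were set side by side in a fit with a mean for each treatment and drug batch. In drug batch 2 (3 against 3 arrays), 9 of the 36 genes fell and none rose, against 25.1% and 10.1% of all genes. In drug batch 1 (2 against 2 arrays), 16 fell and none rose, against 7.20% and 4.20% of all genes. The members had a median change of −0.13 in drug batch 2, against −0.27 in drug batch 1, and all genes had medians of −0.05 and −0.01 in that order. Members were negative in both batches for 28 of 36 genes and called lower in both for 7. The shares of all genes for these counts were not computed, so the counts do not set the members apart. In the fit of both batches together, 22 of the 24 members with a mean log2 value of 8 or more were negative. Of all genes in that range, 2334 of 2615 were negative.

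Hyou1 (−0.36 in drug batch 2 and −0.39 in drug batch 1), Calr (−0.30 and −0.31), Xbp1 (−0.40 and −0.38) and Hspa13 (−0.47 and −0.43) had nearly the same values in both batches. Pdia4 had −0.11 in drug batch 2 and −0.54 in drug batch 1, a difference of 0.43 (SE 0.14, unadjusted p = 0.00856 by limma's interaction test, adjusted p = 0.49). Manf had −0.09 in drug batch 2 and −0.48 in drug batch 1 (difference 0.39, SE 0.13, adjusted p = 0.504). Eif2ak3 had −0.11 in drug batch 2 and −0.49 in drug batch 1 (difference 0.38, SE 0.15, adjusted p = 0.519). Dnajb9 had 0.21 in drug batch 2 and −0.16 in drug batch 1 (difference 0.37, SE 0.14, adjusted p = 0.519). No difference between the batches passed the adjusted threshold for any of the 36 members or of the 19938 genes. At an unadjusted p under 0.05, 6 of 36 members differed (16.7%), against 9.29% of all genes. The level itself differed between the batches for none of the members, against 0.722% of all genes.

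**Figure D4:**
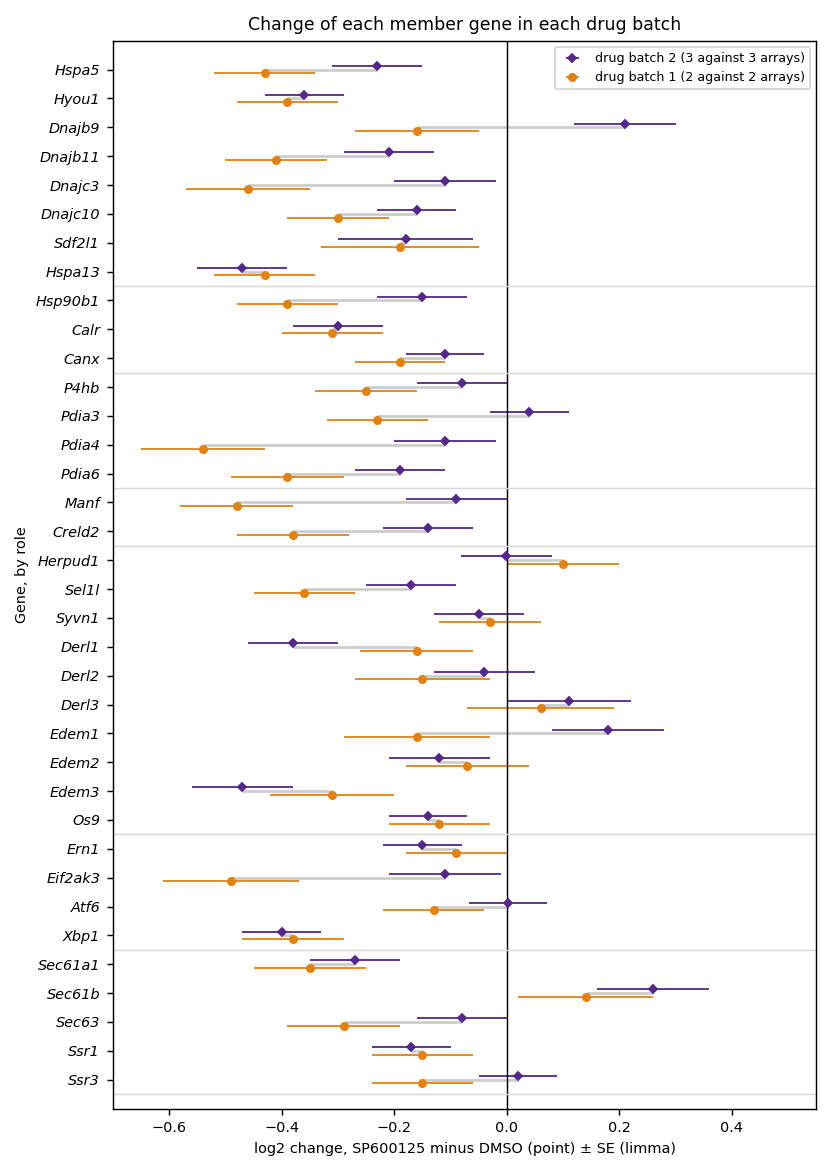
Log2 change (SP600125 minus DMSO) of each member with its limma SE in drug batch 2 (purple diamonds) and drug batch 1 (orange circles), joined by a grey line, with genes in rows by role. Chaperone, isomerase and secreted factor genes other than Hspa13 have their circle left of the diamond, with the longest lines for Pdia4 (difference 0.43) and Manf (0.39), while Calr, Xbp1 and Hspa13 nearly coincide.

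SP600125 b, an array of drug batch 1, lay lowest for many members. Measured from the mean DMSO value of its own batch, the median over the members was −0.25, −0.27, −0.10, −0.19 and −0.13 on SP600125 arrays a to e. Genes with a mean log2 value of 8 or more had −0.29, −0.12, −0.18, −0.27 and −0.23 on the same arrays. The member medians cover all 36 members, of which 24 lie in that range. So taken, the members lay well below those genes on SP600125 b, but not on the other arrays. The disulfide isomerases had −0.23, −0.41, −0.08, −0.15 and −0.05, and the secreted factors −0.34, −0.52, −0.10, −0.11 and −0.13. SP600125 b was the lowest SP600125 array for 18 of 36 members, against 16.9% of all genes. That included all 4 isomerases and 5 of 8 genes of the BiP group, but 0 of 10 ERAD genes. The shortfall of SP600125 b against the mean of the other SP600125 arrays was largest for Eif2ak3 (−0.52), Pdia4 (−0.41) and Dnajc3 (−0.36). Without both b arrays 16 of 36 members were called lower and 1 higher, against 6305 and 3404 of all 19938 genes. In a fit of drug batch 2 alone 10 of 36 were called lower and 1 higher, against 5444 and 2206 of all genes. Both fits were chosen after the data were seen. How far this array accounts for the difference between the batches was not tested.

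Other genes of the same pathways, from lists that hold none of the 36, are set beside them here. Of 30 measured folding and redox genes of the ER, 18 fell and 1 rose, with a median of −0.21. The riser, Pdia2, had a mean of 4.31 after SP600125 and of 3.98 after DMSO. The prolyl isomerases Fkbp14 (−0.55, SE 0.09) and Fkbp2 (−0.53, SE 0.06), the testis-rich calnexin relative Clgn (−0.44, SE 0.08) and the thiol oxidase gene Ero1a (−0.40, SE 0.06) fell most. Of 21 further ERAD genes, 16 fell and none rose (median −0.21), led by Erlin1 (−0.42, SE 0.06), Selenos (−0.33, SE 0.07), the ubiquitin-conjugating enzyme Ube2j1 (−0.31, SE 0.08) and the ubiquitin ligase Marchf6 (−0.30, SE 0.08). Of 18 further translocation and signal peptidase genes, 12 fell and none rose (median −0.22), among them the pore paralogue Sec61a2 (−0.42, SE 0.07), the signal peptidase subunit Spcs3 (−0.40, SE 0.06), the TRAP subunit Ssr4 (−0.35, SE 0.06) and the signal peptide peptidase H13 (−0.32, SE 0.06). After cyclic loess 8 of the 30, 4 of the 21 and 3 of the 18 were lower.

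In the signalling lists rises and falls were more even in number. Of 13 other UPR transducers, 4 fell and 2 rose (median −0.01). Atf6b, the relative of Atf6, fell by 0.41 (SE 0.07), the ER membrane gene Wfs1 by 0.29 (SE 0.07) and Creb3l1, a transcription factor cleaved like ATF6, by 0.23 (SE 0.06). The fourth, Creb3, fell by 0.19, and Ern2 (0.19) and Creb3l3 (0.18) rose. Ern2 averaged 5.43 after SP600125 and 5.24 after DMSO, and Creb3l3 5.39 and 5.21. Of genes with a mean log2 value from 5 to 6, 27.6% rose (median change 0.08). After cyclic loess Ern2, Creb3l3 and Creb3 did not pass (adjusted p = 0.284, 0.505 and 0.98). Of 15 genes of the arm downstream of PERK, 3 rose and 2 fell (median 0.05), against 17.0% and 29.9% of all genes. After cyclic loess 7 of the 15 were higher and 1 lower, against 9.44% and 17.7% of all genes. Vldlr, a lipoprotein receptor (0.33, SE 0.06), Sesn2, a stress-inducible regulator of mTORC1 (0.33, SE 0.08), and Chac1, a glutathione-degrading enzyme (0.27, SE 0.10), rose, while Gadd45a fell by 0.34 (SE 0.06) and Ppp1r15b by 0.22 (SE 0.07). The central factors of the arm, Atf4 (0.04, SE 0.08, adjusted p = 0.667) and Ddit3, which encodes CHOP (0.13, SE 0.07, adjusted p = 0.113), were picked out after their values were seen. Neither passed as deposited, and both were called higher after cyclic loess, each with a change of 0.23.

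Lists of cell type markers differed in direction. Pan-neuronal markers were present, and 13 of 14 fell, with a mean over the list of 8.71 to 9.28 on SP600125 arrays and of 9.07 to 9.43 on DMSO arrays. Of 11 fibroblast and endothelial markers 5 fell and none rose, and the list mean was 7.92 to 8.03 on SP600125 arrays and 8.16 to 8.27 on DMSO arrays. The largest fall in that list was that of the collagen gene Col1a1, with 10.18 ± 0.12 after SP600125 and 10.87 ± 0.04 after DMSO (SD, n = 5 each). Of 10 astrocyte markers 4 fell and 2 rose (8.01 to 8.11 on SP600125 arrays and 8.04 to 8.11 on DMSO arrays), of 9 oligodendrocyte lineage markers 4 fell (6.79 to 6.88 and 6.90 to 6.99), and of 9 neural progenitor markers 3 fell (8.06 to 8.19 and 8.29 to 8.41). Of 8 microglia and macrophage markers 3 rose (4.74 to 4.91 and 4.59 to 4.74), and of 6 plasma cell markers 1 rose (4.46 to 4.56 and 4.42 to 4.55). Pan-neuronal markers changed more in drug batch 2 (median −0.61) than in drug batch 1 (−0.24). The 36 members went the other way, with −0.13 against −0.27. Fibroblast and endothelial markers (−0.13 against −0.18) and neural progenitor markers (0.07 against −0.16) ordered the batches as the members did. The change was lower in drug batch 1 for 0 of 14 pan-neuronal markers and 26 of 36 members. The part of these cell types in the changes of the ER genes was not tested.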

How the data were processed

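The authors deposited 1 table of log2 values for 35556 probe sets on 10 arrays, and the submitters' processing notes name oligo 1.14.0. How background was corrected and probes were normalized and summarized is not given in the sources used here, and the log2 scale was read from the values (1.8984 to 13.8294). They were used as deposited. Probe sets with exactly 1 symbol in the platform annotation (21789) were kept, and the brightest on average stood for its gene, which gave 19938 genes. The array's genome build is not stated, so coordinates refer to the RefSeq promoter table alone.

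Differences are SP600125 minus DMSO from limma 3.58.1 in R 4.3.3 (lmFit, eBayes, two-sided, drug batch as a term, 7 residual degrees of freedom), with Benjamini-Hochberg adjustment over all genes. Changes within each drug batch, and their difference, came from a fit with a mean for each treatment and batch. On simulated data (19938 genes) the fit recovered 22.1%, 98.5% and 100% of changes of 0.25, 0.5 and 1, with 4 false calls. The simulation changed only 68, 66 and 66 genes by these amounts and held no batch effect. In the data 46.9% of genes passed, so larger p-values pass the adjustment there. The simulated rates therefore do not give those of the data. Alternatives were quantile normalization, median centring, cyclic loess, no batch term, the replicate letter as a block, the mean of all probe sets, genes above a mean of 5, and each array left out. Leaving out both b arrays, and drug batch 2 alone, were added after seeing the data.

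The members and lists were chosen with earlier results of these data known. Values on every array are given for Hspa5, Hsp90b1, Xbp1, Ern1, Eif2ak3, Atf6 and Sec61a1 and for up to 3 of the largest called changes in each role group. Up to 4 genes are named from each other pathway list. The array values of Edem1, the riser Pdia2, the lesser-changed Creb3, Ern2, Creb3l3 and Ppp1r15b, and the genes said to be so were chosen after their values were seen.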

Additional observations from a re-analysis of the deposited data

Results flagged for a closer look

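Each group of 5 arrays was checked for an array whose gap to its nearest neighbour took up most of the group's range (above 0.71 of it), which chance gives in about 1 of 20 groups. Of 72 groups (36 genes, each in SP600125 and in DMSO), 5 had such an array. Hspa5 was 10.55 on SP600125 b, against 10.77 to 10.83 on the other SP600125 arrays. Edem3 was 8.32 on the same array, against 7.99 to 8.06, which put it nearer to DMSO where Hspa5 lay farther from it. Hspa13 was 8.18 on SP600125 c, against 8.0 to 8.05 on the others. Pdia3 was 11.06 on DMSO d, against 11.17 to 11.21, and Sec61a1 was 9.96 on DMSO a, against 10.18 to 10.24.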

How the results depend on the processing

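Counts moved most with the scaling of the arrays. Quantile normalization gave 2 members higher and 10 lower (1497 of all genes higher and 4494 lower). Median centring gave 0 members higher and 26 lower (1500 of all genes higher and 8602 lower). Cyclic loess gave 3 members higher and 8 lower (1882 of all genes higher and 3537 lower). With genes above a mean log2 value of 5 alone, 1613 of all genes were higher. Drug batch 2 alone, chosen after seeing the data, gave 1 member higher and 10 lower (2206 of all genes higher and 5444 lower). Without 1 array, 0 to 1 members were higher and 16 to 20 lower (2392 to 3475 of all genes higher and 5106 to 6355 lower). Fewer arrays were tested in these last fits, and for the scalings the cause was not tested. No member had an interaction past the threshold under any alternative run.

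Deviations of same-lettered arrays had r from −0.337 to 0.044 over the 5 letters, after treatment and batch means. In drug batch 1 each group has 2 arrays, so a and b mirror each other and share the value of −0.337. From treatment means alone r was 0.029, −0.208, 0.079, −0.037 and 0.101 for a to e. These values cannot exclude that letters are pairs, and the letters were not taken as pairs. With the letter as a replicate block, 17 members were lower and 1 higher (5298 and 2954 of all genes), and Canx, Manf and Ssr1 did not pass. Signs turned for Pdia4 with the mean of all its probe sets (0.05), and otherwise for members that had not passed. After median centring these were Dnajb9 (−0.04), Herpud1 (−0.06), Derl3 (−0.01) and Edem1 (−0.06). After quantile normalization they were Syvn1 (0.08), Derl2 (0.03), Derl3 (−0.01), Atf6 (0.07) and Ssr3 (0.02), and after cyclic loess Syvn1 (0.13), Derl2 (0.09), Os9 (0.02), Atf6 (0.13), Sec63 (0.02) and Ssr3 (0.07). In drug batch 2 alone they were Pdia3 (0.04), Herpud1 (−0.0006), Atf6 (0.0021) and Ssr3 (0.02). Edem1 ran from −0.01 to 0.11 without 1 array.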
